A study of Mus musculus with 21 samples.

Results

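Kinesin motor genes were followed through the development of spiral ganglion neurons (SGNs), the primary auditory neurons of the cochlea, and were compared with hair cells (HCs) and glia of the inner ear. All genes of the counts table whose symbol is Kif or Kifc followed by a family number were taken, which gave 42 genes of 52550. By their best known roles, 15 were grouped as transport kinesins, 14 as mitotic kinesins and 13 as other kinesins, which include those of cilia and those that regulate microtubules. The data are 21 RNA-Seq libraries of C57BL/6 mice in 7 groups of 3 replicates. SGNs were picked by hand at 5 ages, E15.5 in the embryo and P1, P8, P14 and P30 after birth, from ShhCre/+; Rosa26-CAG-loxp-stop-loxp-tdTomato/+ mice, in which Cre under the Shh locus labels SGNs, so that SGN subtypes are pooled. HCs at P12 came from Atoh1-CreER+ mice with the same reporter and were taken from cochlear and vestibular organs together, by flow sorting per the study's methods but by hand per the labels. Glia at P8 came from vGlut3-iCreER/+ mice with the same reporter, and both CreER lines had received tamoxifen. SGN libraries held 69 to 195 cells, glial libraries 86 to 125 and HC libraries about 1200, and nothing in the labels tells whether the replicates of a group came from separate animals, so that p-values measure the spread between libraries.

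Kinesins are motor proteins that use ATP to move along microtubules or to change their ends. In neurons the kinesin-1, kinesin-2 and kinesin-3 families carry mitochondria, synaptic vesicle precursors and other cargo from the cell body towards the axon terminals. Other families build the spindle and move the chromosomes of dividing cells. Others work in cilia, the tubulin-based organelles that include the kinocilia of HCs. Whether the HCs taken here at P12 still had kinocilia was not tested.

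Levels are given as normalised RPKM, counts divided by the gene's length and by the TMM-scaled library total, so that genes can be compared with each other. Total counts ran from 10368240 to 37287489 per library. As a check of the labels, the SGN marker Slc17a7, a vesicular glutamate transporter, was at 62.7, 65.3 and 80.7 in SGNs at P8 and 0.197, 0.143 and 0.119 in HCs, and the summed level of 5 HC markers (Myo6, Myo7a, Pou4f3, Gfi1 and Otof) was 724 ± 24.8 (SD, n = 3) in HCs and 28.7 ± 4.74 in SGNs at P8. Glial replicate 1 stood apart in the SGN markers Slc17a7, Slc17a6 and Lypd1. Slc17a7 was at 10.8, 0.708 and 0.321 in the 3 glial libraries, Slc17a6 at 15.6, 0.836 and 0.784 and Lypd1 at 5.71, 3.02 and 0.547, each highest in replicate 1. SGNs at P1 replicate 1 had the highest connective tissue genes at that age, 79.7 against 4.54 and 4.05. Over the SGN libraries of all ages their sum ran from 0.173 to 112.8, so a library of another age was higher. In SGNs at P8 the summed myelin genes of Schwann cells reached 1072, 653 and 820.4, against 6266, 8797 and 6520 in glia. In pooled cells, fewer cells of a type and less RNA per cell cannot be told apart.

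**Figure D1:**
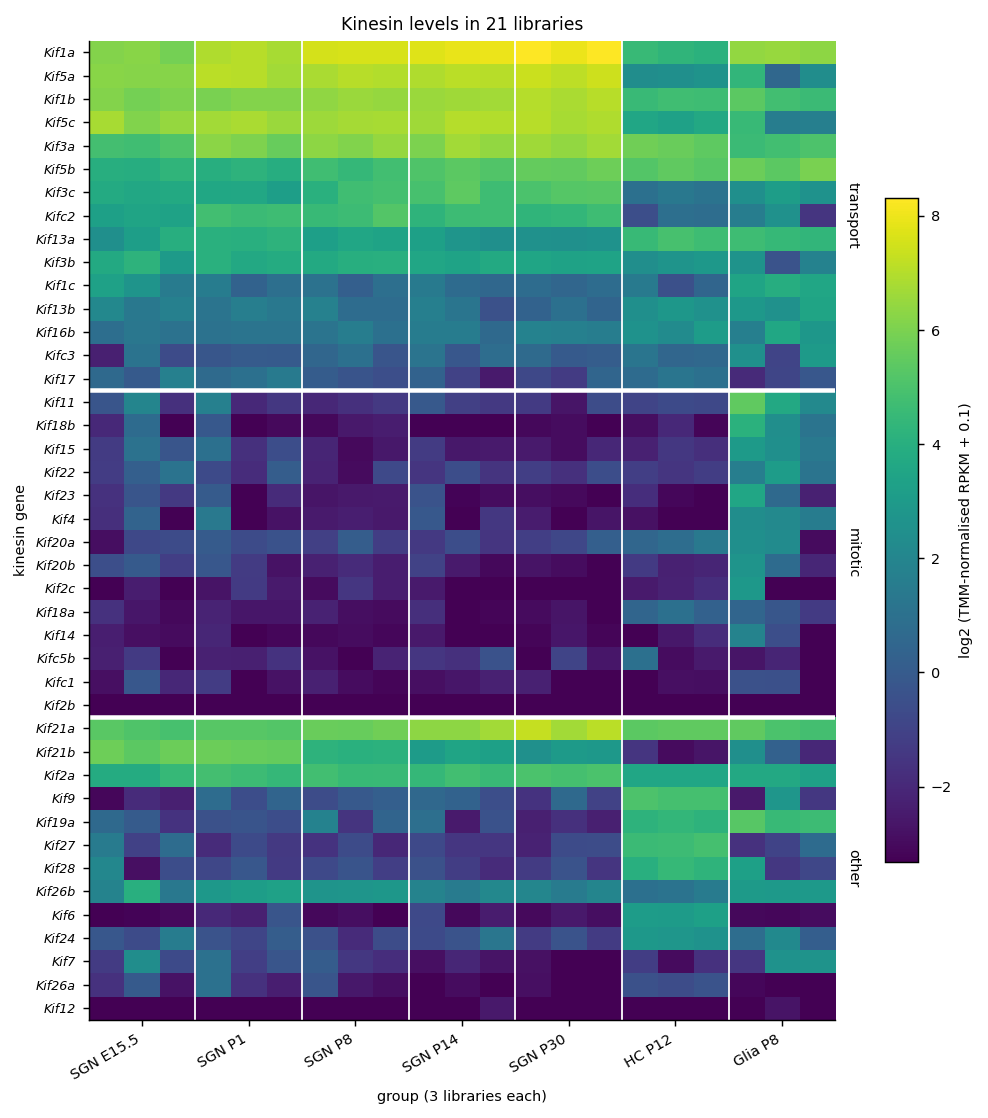
Heat map of the 42 kinesins (rows, ordered in each role by their highest group mean) in the 21 libraries (columns, 3 per group), coloured by log2 of normalised RPKM plus 0.1. Kif1a, Kif5a and Kif5c are bright in all SGN columns, Kif11 and Kif18b are brightest in glia, and Kif9, Kif27, Kif28 and Kif6 are brightest in HCs.

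Kif1a, the kinesin-3 motor of synaptic vesicle precursors, was the most abundant kinesin in SGNs from P8 onward. Its level was 70.2, 76.4 and 58.2 in the 3 libraries at E15.5 and 309, 250.1 and 317 at P30. Every library at P30 stood above every library at E15.5, and the log2 fold change was 2.07 (SE 0.13, adjusted p = 6.1e-09), from the limma-voom fit with Benjamini-Hochberg adjustment that gives all adjusted p-values here. Ages were compared at a 2-fold change and an adjusted p under 0.05. Its means at the ages between were 122 at P1, 192 at P8 and 234 at P14, and no step between neighboring ages passed the 2-fold threshold. Of the summed level of the transport kinesins, Kif1a held 17.0% ± 2.70 (SD, n = 3) at E15.5, 31.4% ± 1.17 at P30, 9.65% ± 1.47 in HCs and 30.1% ± 3.80 in glia. The gene lies at chr1:93015464-93101951 on GRCm38.

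Between E15.5 and P30, 7 of the 31 kinesins tested rose and 6 fell, beside 34.6% of the 15113 genes tested that changed in either direction, 18.4% up and 16.2% down. The other members that rose were Kif21a, Kif3a, Kif5b, Kif3c, Kif5a and Kifc2, and those that fell were Kif7, Kif20b, Kif15, Kif21b, Kif1c and Kif13b. Among the SGNs Kif20b passed the filter on low counts only at E15.5, and Kif7 and Kif15 only at E15.5 and P1. No support is drawn from the falls of Kif20b, Kif7 and Kif15. Of the 15 transport kinesins 6 rose and 2 fell, and their median log2 fold change was 0.91 against -0.01 over all genes tested. Summed over the 15, the transport kinesins came to 429, 384 and 399 at E15.5, with means of 577.6 at P1, 701 at P8 and 786 at P14, and to 959, 831 and 990.1 at P30. These sums rest on the scale, since the ratio of P30 to E15.5 was 2.29 in normalised RPKM, 1.94 in TPM (579 ± 201 at E15.5 and 1122 ± 245 at P30, SD, n = 3), 1.65 in TPM over the nuclear protein-coding genes and 1.60 in CPM. The ratio was above 1 on each of the 4 scales.

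Kinesin-2 and kinesin-1 motors were among those that rose. Kif3a, a subunit of the heterotrimeric kinesin-2 of axons and cilia, was at 28.1, 26.9 and 33.9 at E15.5, 77.3, 66.8 and 48.8 at P1 and 101, 86.9 and 104 at P30. The groups at E15.5 and P1 did not overlap, and Kif3a rose between them with a log2 fold change of 1.11 (SE 0.21, adjusted p = 0.0044), and by P30 with 1.68 (SE 0.21, adjusted p = 1.2e-05). Without replicate 1 at P1 the first of these was 0.96, and under scaling by library size alone it was 0.97, both below the 2-fold threshold. Kif3c, another kinesin-2 motor that pairs with Kif3a, was at 12.2, 12.7 and 9.21 at P1 and 16.8, 26.3 and 29.6 at P8, with no overlap, a log2 fold change of 1.05 (SE 0.22, adjusted p = 0.0062). This step fell below the threshold under scaling by library size alone, where it was 0.83. It did so too without replicate 3 at P1 or replicate 2 or 3 at P8, where it lay between 0.88 and 0.95. The rise of Kif3c from E15.5 to P30 also fell below the threshold under library size alone, at 0.93. Of the summed kinesin-2 motors, Kif3a held 51.2% ± 6.34 (SD, n = 3) at E15.5, 67.1% ± 2.58 at P30 and 82.5% ± 3.49 in HCs.

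Kif5b, the kinesin-1 heavy chain found in most tissues, rose from 15.4, 15.3 and 19.4 at E15.5 to 47.0, 45.0 and 53.7 at P30, with a log2 fold change of 1.5 (SE 0.16, adjusted p = 2.3e-06). Kif5a, a kinesin-1 heavy chain of neurons, went from 75.2, 72.5 and 72.6 to 164, 144 and 172, with 1.08 (SE 0.13, adjusted p = 5.4e-06). The change of Kif5a fell below 2-fold in 2 alternatives. It was 0.98 with a CPM above 10 and 0.61 when libraries were scaled by their size alone. The median of all genes shifted by -0.48 under that scaling. Kif5c, the other neuronal heavy chain, was not called. It was at 110.8, 69.6 and 88.9 at E15.5 and 134, 111.1 and 120.2 at P30, groups that came close but did not overlap. Its log2 fold change of 0.45 turned to -0.03 under library size alone. Kif1b, a kinesin-3 motor of mitochondria and vesicle precursors, had means of 65.0 and 125, a log2 fold change of 0.91 that stayed below 2-fold with an adjusted p of 5e-06.

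**Figure D2:**
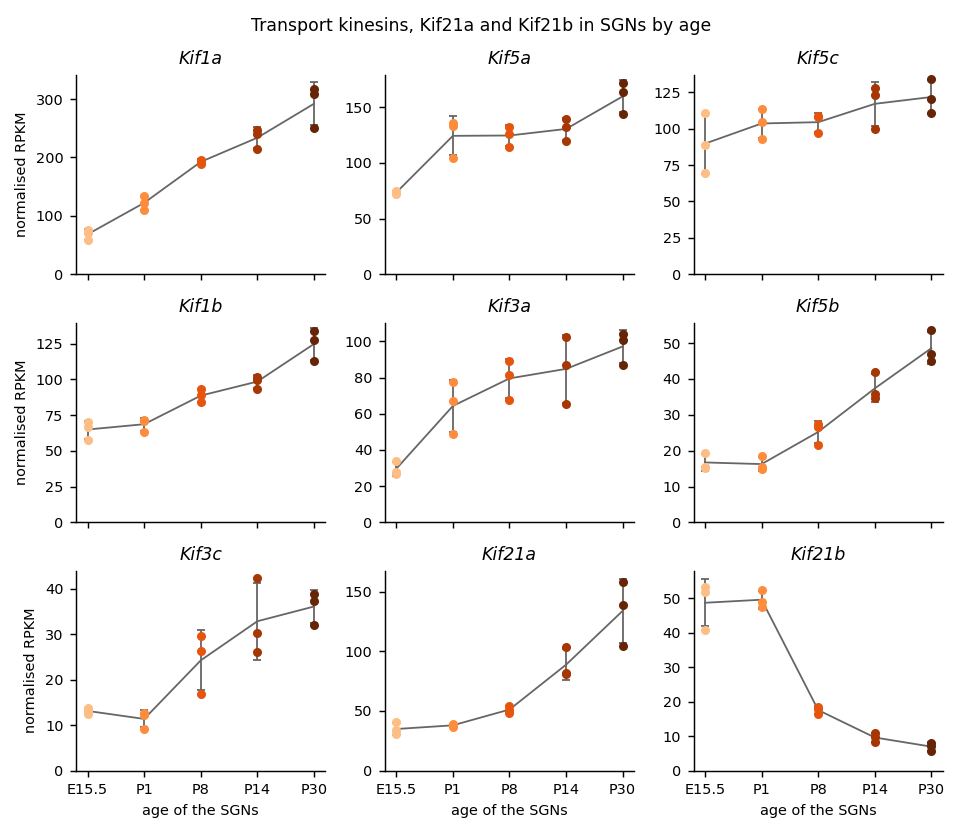
Normalised RPKM of 7 transport kinesins, Kif21a and Kif21b in SGNs at 5 ages, with a point per library, the line through group means and bars of 1 SD (n = 3). Kif1a climbs from a mean of 68.3 to 292.0, and Kif21a and Kif21b move in opposite directions.

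Members of the transport group that fell were Kif1c and Kif13b, both kinesin-3 motors. Kif1c was at 9.91, 6.48 and 2.76 at E15.5, 2.82, 1.18 and 1.82 at P1 and 1.63, 1.32 and 1.62 at P30, and the 3 libraries at E15.5 were the most spread. It fell by P30 with a log2 fold change of -1.85 (SE 0.50, adjusted p = 0.0075). Its fall by P1, -1.5 (SE 0.45, adjusted p = 0.039), had overlapping groups and was lost when replicate 1 or 2 at E15.5 or replicate 2 or 3 at P1 was left out. Kif13b had means of 3.28 and 1.42, and its fall of -1.25 (SE 0.47, adjusted p = 0.041) was lost without replicate 1 or 3 at E15.5 or without any of the libraries at P30. Kifc2, a kinesin of dendrites and axons with its motor at the C-terminus, rose from 9.69, 11.1 and 10.2 to 27.3, 24.3 and 26.1 at P1, a log2 fold change of 1.32 (SE 0.24, adjusted p = 0.0029), with no overlap between the groups. Its rise from E15.5 to P30, 1.01 (SE 0.25, adjusted p = 0.0041), was lost under library size alone (0.53), RLE size factors (0.97) or a CPM above 10 (0.90), and without replicate 1 or 3 at E15.5 or replicate 3 at P30.

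Kif21a and Kif21b, paralogs of the kinesin-4 family that pause and steady microtubule ends, moved in opposite directions. Kif21a was at 40.4, 33.8 and 30.4 at E15.5, 50.7, 48.6 and 54.4 at P8, 81.6, 81.2 and 104 at P14 and 158, 105 and 139 at P30. It rose from E15.5 to P30 with a log2 fold change of 1.92 (SE 0.17, adjusted p = 2.4e-07), and no neighboring step passed. Kif21b was at 53.2, 40.9 and 51.9 at E15.5, 52.5, 48.8 and 47.4 at P1, 18.4, 16.4 and 17.8 at P8 and 5.59, 7.94 and 7.26 at P30. The groups at P1 and P8 did not overlap, with a fall of -1.5 (SE 0.14, adjusted p = 8.5e-06), and the fall from E15.5 to P30 was -2.88 (SE 0.17, adjusted p = 5.3e-09). Kif21b was above Kif21a in each library at E15.5 and P1 and below it in each library from P8 on. Both calls between E15.5 and P30 held under each of the 15 alternative fits. Their coordinates on GRCm38 are chr15:90933276-91049948 for Kif21a and chr1:136131389-136177998 for Kif21b.

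Fewer kinesins moved between neighboring ages. Between E15.5 and P1, 3 rose and 1 fell (8.26% of all genes tested changed, 5.08% up and 3.18% down), and between P1 and P8, 1 rose and 1 fell (7.44% of all genes, 4.29% up and 3.15% down). From P8 to P14 and from P14 to P30 limma-voom called 0 of the 31 kinesins, where 0.536% (0.251% up and 0.285% down) and 0.0596% (0.0331% up and 0.0265% down) of all genes changed. At an unadjusted p under 0.05 limma-voom gave 5 and 6 kinesins in these steps, beside 1735 and 990 of the 15113 genes tested. edgeR called 0 kinesins in both (3 and 5 unadjusted) and DESeq2 called 0 in both (5 and 6 unadjusted). The remaining call before P1 was Kif9, a kinesin of motile cilia, at 0.0155, 0.169 and 0.101 at E15.5 and 1.62, 0.571 and 1.23 at P1. Its counts at E15.5 were 1, 15 and 9. The call of 3.77 (SE 1.08, adjusted p = 0.034) was lost without any one of 5 of the 6 libraries, the exception being replicate 2 at P1. Among the SGNs Kif9 passed the filter on low counts at P1, P8 and P14 but not at E15.5, so no support is drawn from its call. Its mean in HCs was 30.65. In the same step 1 of the 5 HC markers was called higher, and their median log2 fold change was 2.38. Whether RNA of HCs had a part in the rise of Kif9 was not tested.

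The 3 kinesin-1 heavy chains were set against their summed level. Because shares are ratios within a library, they do not depend on library scaling. In SGNs Kif5b held 9.37% ± 1.56 (SD, n = 3) at E15.5, 6.67% ± 0.532 at P1 and 14.7% ± 0.992 at P30, with the rest in Kif5a and Kif5c. In HCs Kif5b held 68.7%, 74.0% and 67.2%, and in glia 55.0%, 90.5% and 88.4%. Glial replicate 1, the library with the highest Slc17a7, Slc17a6 and Lypd1, had the lowest Kif5b share of the glia. Each glial and HC library was above each SGN library, replicate 1 included, and with 3 libraries in each group no test of the share was run.

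**Figure D3:**
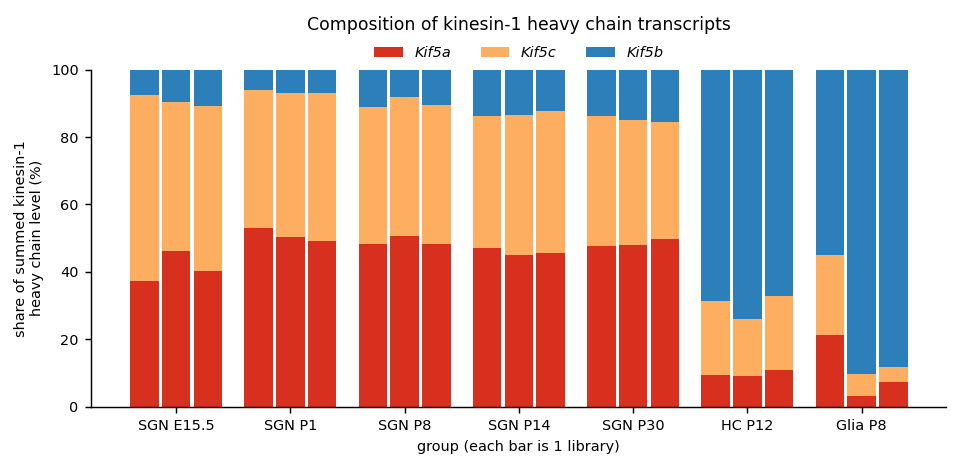
Share of the summed kinesin-1 heavy chain level held by Kif5a, Kif5c and Kif5b, in percent, with a stacked bar per library and 3 bars per group. Kif5b is the smallest share of each SGN bar and the largest share of each HC and glial bar.

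Kif5b itself was at 36.6, 43.7 and 38.8 in HCs against 34.6, 41.8 and 35.7 in SGNs at P14, groups that overlap. Its log2 fold change was 0.10 (SE 0.16, adjusted p = 0.63), and 0.81 when scaled by library size alone, which moves the median of all genes by 0.71 here. Kif5a was at 5.07, 5.36 and 6.19 in HCs and 119, 139.6 and 133 in SGNs at P14, a log2 fold change of -4.54 (SE 0.39, adjusted p = 1.8e-08), and Kif5c was also lower, with -3.33. Cell types were compared at a 4-fold change and an adjusted p under 0.01. Against SGNs at P14, 8 of 36 kinesins tested were higher in HCs and 6 were lower, beside 23.1% of the 17531 genes tested, 12.2% higher and 10.9% lower. The lower ones were Kif21b, Kif5a, Kifc2, Kif3c, Kif1a and Kif5c. Kif1a was at 23.0, 19.2 and 17.1 in HCs, with -3.58 (SE 0.17, adjusted p = 1.8e-11), and Kif21b was at 0.252, 0.0281 and 0.0592, with -6.99 (SE 1.05, adjusted p = 1.7e-05). Kifc2 was at 0.601, 1.81 and 1.71 in HCs and 19.1, 25.2 and 26.1 in SGNs at P14, with -4.14 (SE 0.63, adjusted p = 1.8e-05). Kif3a, at 54.4, 50.1 and 43.3 in HCs, had the highest mean of the kinesins there, though its lowest library lay below 2 of those of Kif21a (41.9, 44.8 and 44.4).

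The 8 members called higher in HCs than in SGNs at P14 differed in how they passed the filter on low counts. Kif9, Kif27 (related to the hedgehog regulator Kif7), Kif28, Kif19a (which shortens cilia) and Kif24 (which limits ciliary growth) passed it in SGNs as well. All of these belong to the group of other kinesins. Kif6 and Kif26a, also of that group, passed only through the HCs. The mitotic Kif18a passed only through the HCs and glia, so no support is drawn from the calls of these members. Kif9 was at 33.6, 29.4 and 29.0 in HCs and 1.42, 1.16 and 0.588 in SGNs at P14, with a log2 fold change of 4.90 (SE 0.70, adjusted p = 1e-05). Kif27 was at 24.1, 24.9 and 29.2 against 0.493, 0.256 and 0.260, with 6.31 (SE 0.73, adjusted p = 7.1e-07). In both genes every HC library stood above every SGN library at every age.

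Kif28 was at 16.2, 22.3 and 18.9 in HCs and 0.639, 0.331 and 0.174 in SGNs at P14, with 5.77 (SE 1.05, adjusted p = 0.00014). Kif6 was at 8.40, 8.28 and 9.55 in HCs and at 0.484, 0.0178 and 0.0820 in SGNs at P14, and the counts behind the latter were 68, 2 and 8. The log2 fold change of Kif6 was 6.45, and replicate 1 held most of the SGN counts at P14. Kif26a, which has lost motor activity, was low, with counts of 74, 88 and 120 in HCs and 0, 4 and 0 in SGNs at P14. The calls of Kif26a, Kif24 and Kif18a were lost with edgeR. The HC markers were also the highest among the SGNs at P14 in replicate 1, 87.6 against 39.6 and 19.6. Without that library 11 kinesins were higher and 6 lower in HCs, beside 1909 higher and 1833 lower of 17531 genes tested. Without it the log2 fold change of Kif6 was 7.70, that of Kif18a 7.80 and that of Kif19a 6.38, against 6.45, 6.06 and 5.29 with it. Vestibular HCs are part of the HC group, and their share in these values was not tested.

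**Figure D4:**
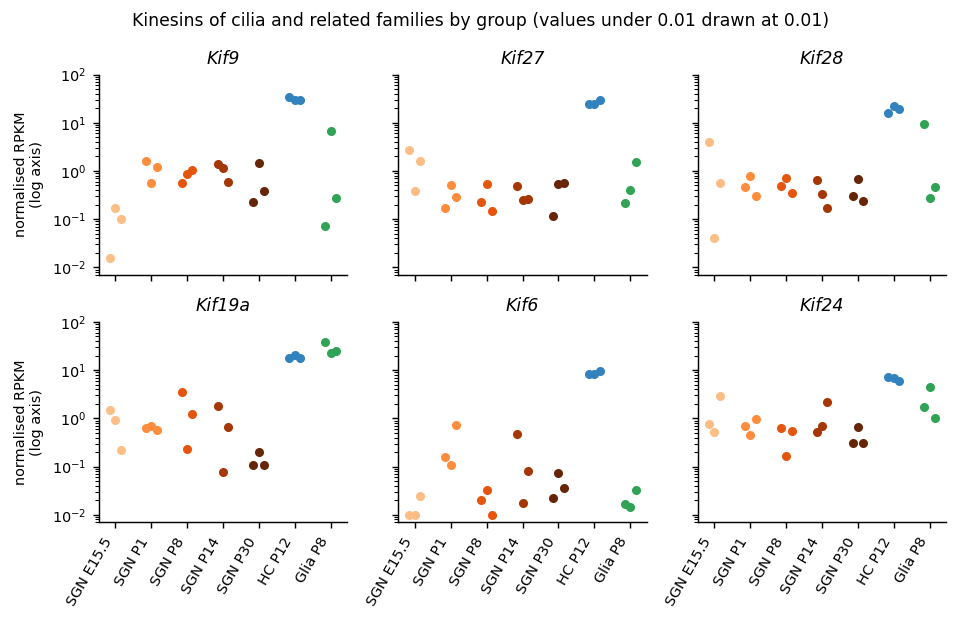
Normalised RPKM of 6 kinesins in the 7 groups on a log axis, with a point per library and values under 0.01 drawn at 0.01. In HCs the points of Kif9, Kif27, Kif28 and Kif6 lie above those of every other group, while Kif19a in glia lies above the HC points on this scale but below them in TPM.

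Against glia, 5 kinesins were higher in HCs and 8 were lower, beside 24.4% of all genes tested, 16.2% higher and 8.18% lower. Those higher were Kif6, Kif26a, Kif9, Kif27 and Kif28. Kif6 and Kif26a passed the filter only through the HCs, so no support is drawn from their calls. Kif6 had counts of 856, 1164 and 1433 in HCs and 2, 1 and 2 in glia, so that its fitted fold change depends on the offset of 0.5 counts that voom adds. Kif9 was at 0.0719, 6.71 and 0.269 and Kif28 at 9.63, 0.269 and 0.461 in glia, and in each a different glial library stood above the other two. The log2 fold changes were 6.05 (SE 0.88, adjusted p = 1.4e-05) and 3.83 (SE 0.89, adjusted p = 0.0016), and edgeR kept neither call (adjusted p = 0.0121 and 0.0969). Without glial replicate 1 they were 4.40 and 5.71, and the call of Kif28 was lost without glial replicate 2 or 3. The lower ones were Kif4, Kif18b, Kif11, Kif15, Kif21b, Kif22, Kif1c and Kif1a. Kif4 and Kif18b passed the filter only through the glia, so no support is drawn from their calls. edgeR did not call Kif26a, Kif18b and Kif4 here (adjusted p = 0.0135, 0.012 and 0.0128). Kif21b was at 0.252, 0.0281 and 0.0592 in HCs and 5.45, 1.14 and 0.142 in glia, groups that overlap. Its log2 fold change of -4.07 (SE 1.19, adjusted p = 0.0083) was -2.51 (adjusted p = 0.059) without glial replicate 1, and its call was lost without 5 of the 6 libraries, the exception being glial replicate 3. The call was also lost under library size alone, with no filter on low counts and with only the 6 libraries compared. Kif4, a chromosome-bound motor, had counts of 4, 0 and 0 in HCs and 553, 278 and 161 in glia, so its fitted fold change depends on the same offset. Kif19a was not called here, with 18.1, 20.7 and 18.3 in HCs and 38.5, 23.1 and 24.9 in glia, an order that turns in TPM (61.8, 75.7 and 68.7 against 46.1, 25.9 and 27.4). It was higher in glia than in SGNs at P8 by 4.84 (SE 0.67, adjusted p = 9.3e-06), from 3.51, 0.237 and 1.22. Kif13a, a kinesin-3 motor of endosomes, was at 22.7, 30.5 and 25.8 in HCs and 9.73, 6.63 and 5.52 in SGNs at P14, and its log2 fold change of 1.86 (SE 0.27, adjusted p = 9.9e-06) stayed below 4-fold.

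Mitotic kinesins were low in SGNs. Their summed level was 3.02, 13 and 4.35 at E15.5, 12.4, 1.84 and 3.21 at P1 and 1.40, 1.36 and 2.44 at P30, and replicate 2 at E15.5 and replicate 1 at P1 stood above the others. The same libraries were the highest of their ages for 20 other genes of mitosis, at 32.4 and 42.6. On the TPM scale the sum was 8.14 ± 3.58 (SD, n = 3) at E15.5 and 2.01 ± 0.315 at P30. Kif11, the motor that pushes spindle poles apart, was at 0.747, 3.80 and 0.211 at E15.5 and 0.290, 0.0569 and 0.559 at P30, and was not called. Kif15, which works beside Kif11 in the spindle, was at 0.308, 2.01 and 0.746 at E15.5 and 0.0815, 0.0299 and 0.142 at P30, and its fall of -3.54 (SE 1.23, adjusted p = 0.03) was lost without replicate 2 at E15.5 or without any of the libraries at P30. Kif20b, a motor of the last step of cell division, was at 0.604, 0.891 and 0.347 and 0.0526, 0.0316 and 0, and its fall of -4.82 (SE 1.46, adjusted p = 0.015) was lost without replicate 3 at P30, the library at 0. Only 6 of the 14 mitotic kinesins passed the filter on low counts among the SGNs, so the other 8 were not tested there. Kif20b passed it there only at E15.5 and Kif15 only at E15.5 and P1, so no support is drawn from their falls.

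Several mitotic kinesins were higher in glia at P8 than in SGNs at P8, and the glial libraries were uneven. The sum over all 14 was 114, 46.3 and 14.6, with replicate 1 the highest and replicate 3 the lowest, against 1.35, 1.98 and 1.76 in SGNs at P8. Kif11 was at 44.5, 12.8 and 4.41 in glia and 0.147, 0.207 and 0.277 in SGNs at P8, with 6.32 (SE 1.32, adjusted p = 0.00066). Kif18b, a motor that shortens spindle microtubules, was at 17.0, 5.30 and 2.16 and 0.0172, 0.0743 and 0.0906, with a log2 fold change of 7.0, and Kif15 was at 7.92, 5.48 and 2.52 and 0.131, 0.0211 and 0.0661, with 6.47 (SE 1.04, adjusted p = 5.2e-05). In these 3 genes every glial library was above every SGN library at P8, but Kif18b and Kif4 passed the filter only through the glia, and Kif18a only through the glia and HCs, so no support is drawn from their calls. edgeR did not call Kif18b, Kif4 and Kif18a (adjusted p = 0.0117, 0.0436 and 0.0355). Without glial replicate 1 the log2 fold changes of Kif11 and Kif18b were 5.24 and 6.00. Kif22, a chromosome-bound motor, was at 3.03, 8.46 and 2.12 and 0.126, 0.0271 and 0.487, with 4.95 (SE 0.92, adjusted p = 0.00022). Kif20a, a motor of the division furrow, was not called, and its glial values were 5.36, 4.74 and 0.0254, with replicate 3 far below the others.

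Against SGNs at P8, 8 kinesins were higher and 5 were lower in glia, beside 20.9% of all genes tested, 7.53% higher and 13.4% lower. The higher ones were the mitotic Kif18b, Kif15, Kif11, Kif4, Kif22 and Kif18a, with Kif19a and Kif1c. A list of 20 other genes of mitosis, among them Mki67, Top2a and Ccnb1, gave 13 higher and none lower of 18 tested by limma-voom. At an unadjusted p under 0.05, 15 were higher, beside 3791 higher and 5005 lower of 17531 genes tested. Only 12 of the 20 passed the filter among the SGNs. Its sum was 428, 161 and 77.5 in the same 3 glial libraries, in the same order as the mitotic kinesins. Mki67, a marker of cycling cells, had a mean of 45.7 in glia. Without glial replicate 1 the counts of kinesins were again 8 and 5, beside 1501 and 2382 of the 17531 genes tested. Kif18a and Kif4 were then no longer past the threshold. Kif18a and Kif4 were lost as well without any one of the SGN libraries at P8. In HCs the sum of the mitotic kinesins was 5.97, 5.11 and 5.22, and Kif18a, which dampens chromosome movement, had counts of 211, 432 and 278 against 46, 0 and 2 in SGNs at P14, with a log2 fold change of 6.06.

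**Figure D5:**
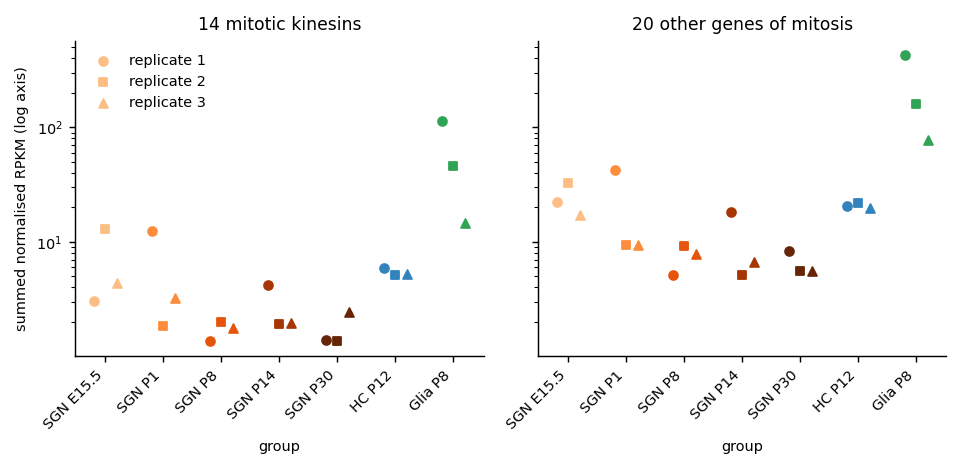
Summed normalised RPKM of the 14 mitotic kinesins (left) and of 20 other genes of mitosis (right) per library on a log axis, with replicates 1, 2 and 3 as circles, squares and triangles. Among the glia both sums are highest in replicate 1 and lowest in replicate 3. Each glial library is above every SGN library on this scale, but in TPM the mitotic kinesins of glial replicate 3 (16.1) are below those of SGNs at P1 replicate 1 (21.9).

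The starts of mitotic kinesins were read for 2 elements known from genes of the G2 and M phases, the CHR element TTTGAA and the NF-Y box CCAAT, on both strands of the 250 bases before the RefSeq start. A promoter was found for 33 of the 42 kinesins. CHR letters were in 38.5% of 13 mitotic kinesins, in 10% of 10 transport kinesins and in 18.3% of 27025 genes, and NF-Y letters in 69.2%, 30% and 37.5%. Both elements were in 23.1% of the mitotic kinesins (3 of 13), 20% of the other kinesins (2 of 10), none of the 10 transport kinesins and 7.34% of all genes. Of the other kinesins, 20% held CHR letters and 40% NF-Y letters. The windows of the 3 mitotic kinesins with the highest TPM at E15.5 are shown up to the first annotated start, 5′ to 3′ on the strand of the gene, from RefSeq on GRCm38.p6, with the matches on either strand in capitals. They lie at chr7:127042472-127042670 on the minus strand for Kif22, chr19:37376132-37376381 on the plus strand for Kif11 and chr9:122950831-122951045 on the plus strand for Kif15. A match is a description of letters and no measure of binding.
Kif22: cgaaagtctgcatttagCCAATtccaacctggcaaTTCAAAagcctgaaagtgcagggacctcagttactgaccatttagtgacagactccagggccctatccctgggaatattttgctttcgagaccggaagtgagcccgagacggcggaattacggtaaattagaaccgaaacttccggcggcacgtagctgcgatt
Kif11: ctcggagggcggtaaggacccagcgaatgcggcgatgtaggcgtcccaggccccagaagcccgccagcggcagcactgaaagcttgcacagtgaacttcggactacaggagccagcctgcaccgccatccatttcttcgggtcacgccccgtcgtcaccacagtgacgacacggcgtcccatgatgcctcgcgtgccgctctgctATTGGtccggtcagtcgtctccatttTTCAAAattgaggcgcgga
Kif15: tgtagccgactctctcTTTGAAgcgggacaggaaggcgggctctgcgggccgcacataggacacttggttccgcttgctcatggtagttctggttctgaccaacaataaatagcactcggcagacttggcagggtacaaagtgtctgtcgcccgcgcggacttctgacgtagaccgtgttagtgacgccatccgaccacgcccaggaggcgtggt

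Among transport kinesins, glia differed from SGNs at P8 in Kif5a, Kifc2, Kif5c and Kif3b, which were lower, and in Kif1c, which was higher. Kif5a was at 20.1, 1.38 and 5.07 in glia, with -4.30 (SE 0.46, adjusted p = 4.8e-07), and Kif5c was at 22.8, 2.98 and 3.17, with -3.82 (SE 0.44, adjusted p = 1.3e-06). In both genes replicate 1 was the highest glial library, and without it the log2 fold changes were -5.58 and -5.07. Kif3b, the partner of Kif3a, was at 6.24, 0.678 and 3.42 against 13.1, 15.6 and 16, with -2.42 (SE 0.51, adjusted p = 0.00066), and without glial replicate 2 its log2 fold change was -1.57, below 4-fold. Kifc2 was at 2.92, 5.88 and 0.245 against 22.4, 24.9 and 36.1, with -3.90 (SE 0.64, adjusted p = 6.4e-05). Kif1c was at 11, 15.2 and 11.8 in glia and 1.96, 1.06 and 1.79 in SGNs at P8, with 3.00 (SE 0.46, adjusted p = 2.9e-05). Kif5b was at 52.4, 41.4 and 62.7 in glia, and its log2 fold change of 1.04 (SE 0.16, adjusted p = 3.7e-05) stayed below 4-fold. Kif1a was the most abundant kinesin in glia, at 85.2, 90.1 and 79.7, and its log2 difference of -1.17 did not reach 4-fold.

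Partners of the motors were read from a list of 14 light chains and adaptors. Between E15.5 and P30, 9 of 13 tested rose and none fell by limma-voom, beside 18.4% and 16.2% of all genes tested. At an unadjusted p under 0.05 there were 11 higher and 1 lower, beside 3911 higher and 3639 lower of 15113 genes tested. Klc2, a kinesin-1 light chain, had means of 14 and 54.2, with 1.96 (SE 0.26, adjusted p = 2e-05), and Trak2, which ties mitochondria to kinesin-1, had 11.8 and 36.9, with 1.95 (SE 0.35, adjusted p = 0.00034). Klc1, another light chain, was lower in HCs than in SGNs at P14 by -4.19 (SE 0.24, adjusted p = 9.1e-11). Of 22 genes of dynein and dynactin, the motor of the opposite direction, 7 rose and 1, the light chain Dynll1, fell from E15.5 to P30. This stood beside 18.4% of all genes tested that rose and 16.2% that fell. Only with both directions pooled was the share close to that of all genes, 34.6%. Dynlt3, a dynein light chain, had means of 15.2 and 196, with 3.67 (SE 0.27, adjusted p = 3.8e-08), and Dync1i1, an intermediate chain, had 3.85 and 41.4, with 3.38 (SE 0.35, adjusted p = 1.7e-06). The median log2 fold change was 1.20 for the light chains and adaptors and 0.70 for dynein and dynactin, against -0.01 over all genes tested.

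Of the 42 kinesins, 36 passed the filter in at least 1 of the 7 groups, and those that did not were Kif12, Kif14, Kif2b, Kif2c, Kifc1 and Kifc5b. Kif2b was at 0 in every library, which allows up to 3 counts in each. Kif2c had counts of 624, 0 and 0 in glia, all of them in replicate 1. Another 9 were tested and called in no comparison: Kif13a, Kif16b, Kif17, Kif1b, Kif20a, Kif23, Kif26b, Kif2a and Kifc3. Kif2a, which takes apart microtubule ends, had means of 16.8 at E15.5 and 31.2 at P30, a log2 fold change of 0.88 (SE 0.19, adjusted p = 0.0017), below 2-fold. Kif7, a regulator of hedgehog signaling in cilia, had counts of 21, 479 and 49 at E15.5 and 6, 0 and 0 at P30, so that the size of its fall, -6.43 (SE 1.89, adjusted p = 0.012), depends on the offset added to the counts. Replicate 2 held most of the counts at E15.5, and without it the log2 fold change was -5.06. The call was lost without replicate 2 or 3 at P30. Among the SGNs Kif7 passed the filter only at E15.5 and P1, so no support is drawn from its fall. Of the 42 genes, 26 overlap another gene in the annotation, among them Kif28 with Ahctf1 on the same strand and Kif18a with Mettl15 on the opposite strand. The strand setting of the counting is not known, so reads of such pairs may not have been told apart.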

How the data were processed

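RNA of small pools of cells were amplified with oligo-dT and random primers and sequenced. Per the submitters' processing notes and the study's methods, reads were aligned to mm10 with STAR 2.4.0i, and the authors deposited raw counts per gene of GENCODE vM15, made with featureCounts, with gene lengths; strand and multimapping settings are not given in the sources used here. Counts were tested with limma-voom (limma 3.58.1, R 4.3.3) on TMM-scaled counts, as in the study, with a CPM above 1 in all replicates of at least 1 group, for 15 SGN libraries (ages) or all 21 (cell types). Normalised RPKM, computed here with edgeR 4.0.16, replaced TPM as the level unit after the data were seen, because the 57-base noncoding gene Gm23935 took 8.17% to 68.1% of all TPM; TPM over 21806 nuclear protein-coding genes was also tried. Genes were placed with GENCODE M21 on GRCm38. The members and lists were chosen with earlier results of these data known. Per-library values were given for the 4 transport, 4 mitotic and 3 other kinesins with the highest TPM and for the largest called changes, and a few more were added after their values were seen. A median of 67.9% of counts from 1 to 20 were even, so a count of 2 may be 1 fragment. Limits set by a count of 0 cover counting error only. The fit was tested on simulated data. Alternatives were edgeR, DESeq2 1.42.0, other scalings, filters, weights, thresholds and left-out libraries. The result of 1 marker gene is not reported here.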

Additional observations from a re-analysis of the deposited data

How the results depend on the processing

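Of 59 called kinesin changes, 31 were called under every alternative that gave an adjusted p (DESeq2 gave none for 3 of them), 28 were lost under at least 1, and none changed direction. The losses numbered 11 under edgeR, 2 under DESeq2 (adjusted p NA for 5 more), 7 under library size alone, 2 under RLE size factors, 6 without a filter on low counts, 2 with a CPM above 10, 4 with sample quality weights and 9 with only the 6 libraries compared. Leaving out a replicate lost 17. The causes were not tested. For P1 against E15.5, 2 kinesins were called with only the 6 libraries compared, 7 with no fold limit and 2 to 4 without a replicate (2 without replicate 1 at P1). All genes called were 453 of 15113 with only the 6 libraries compared and 1016 without replicate 1 at P1. For P8 against P1, 1 was called under library size alone (1181 of 15113 genes), 5 with no fold limit and 1 to 3 without a replicate. For P14 against P8, 2 were called with no fold limit. For P30 against E15.5, 19 were called by DESeq2 (8 higher and 11 lower), 8 with a CPM above 10 (only 17 kinesins tested) and 8 to 15 without a replicate (15 without replicate 2 at E15.5, 8 without replicate 3 at P30). All genes called were 5646 of 15113 by DESeq2 and 3825 of 9349 with a CPM above 10. They were 5168 without replicate 2 at E15.5 and 4225 without replicate 3 at P30. Under library size alone the split for P30 against E15.5 was 4 higher and 9 lower, in place of 7 and 6. Over all genes tested it was 1698 higher and 3973 lower, in place of 2778 and 2446. For HCs the split under library size alone was 12 and 6 against SGNs at P14, and 7 and 6 against glia. All genes gave 3325 and 1229 against SGNs at P14, in place of 2136 and 1910. Against glia they gave 3573 and 1020, in place of 2838 and 1434. Kif1a, lower in HCs than in glia with a log2 fold change of -2.14, was -1.98 under DESeq2 and RLE and -1.65 under library size alone. At 2-fold and an adjusted p under 0.05, 25 kinesins differed between glia and SGNs at P8. The share of all genes was not computed at these thresholds or with no fold limit, so no reading is drawn from those kinesin counts. At an unadjusted p under 0.05 limma-voom gave 27 of 36 kinesins between glia and SGNs at P8, beside 8796 of 17531 genes tested. edgeR called 8 between HCs and glia, beside 3319 of 17531 genes.

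The summed transport kinesins at E15.5 were 4119 in CPM and 2841 in TPM over nuclear protein-coding genes. At P30 they were 6576 in CPM, 4677 in TPM over nuclear protein-coding genes and 1442 in TPM over nuclear genes. The summed mitotic kinesins at E15.5 were 46.5 in CPM and 47.1 in TPM over nuclear protein-coding genes. At P30 they were 6.61, 8.65 and 2.57 on these 3 scales.

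The main fits did not pair libraries by replicate number. In no comparison did all same-numbered deviations correlate above 0.1, a rule that cannot show pairing to be absent. Between neighboring postnatal ages all were positive: 0.366, 0.0639 and 0.162 for P8 against P1, 0.324, 0.136 and 0.02 for P14 against P8, and 0.384, 0.231 and 0.0919 for P30 against P14. Every other comparison had negative values among them. With the replicate number as a block, the kinesins called were 4, 3, 0 and 0 between neighboring ages, 14 for P30 against E15.5, 15 for glia against SGNs, 14 for HCs against SGNs and 15 for HCs against glia, and 0 of the 59 calls were lost. In the same order, all genes called were 1448, 1273, 146 and 23 between neighboring ages, then 5406, 3731, 3975 and 4349.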
